A study of Homo sapiens with 8 samples.

Results

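The genes described here are 10 transcripts that ERK signalling is known to switch on, read in a melanoma cell line: DUSP4, DUSP5, DUSP6, SPRY2, SPRY4, SPRED1, SPRED2, ETV4, ETV5 and PHLDA1. They were chosen by symbol, and every probe set annotated to exactly 1 of these symbols was a member. That gave 28 probe sets of the 41091 with a single symbol, and 10 genes of 19775. The arrays came from a study of HSF1 loss together with HSP90 inhibition in cancer cells, and 1 of its questions was whether HSF1 knockdown and an HSP90 inhibitor lower ERK pathway activity. The comparisons below address it only for messenger RNA, since no ERK phosphorylation was measured on the arrays.

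A375, an established human melanoma line, was profiled on 8 Affymetrix arrays in 4 groups of 2. The shHSF1 Dox HSP990 cells carried a Doxycycline-inducible hairpin against HSF1, received 100 ng/mL Doxycycline for 3 days, and were then given the HSP90 inhibitor NVP-HSP990 at 100 nM for 3 h. The shHSF1 HSP990 cells were the same line given the inhibitor without Doxycycline in their titles. The shNTC Dox DMSO cells carried a non-targeting hairpin and received Doxycycline and then 0.1% DMSO, and the shNTC DMSO cells received DMSO without Doxycycline in their titles. The labels' growth protocol names Doxycycline for all lines, whereas the titles separate cells with and without it, and the titles were followed. All cells were stably transduced, with 1 line for each hairpin. Both groups given NVP-HSP990 were shHSF1 cells and both groups given DMSO were shNTC cells, so the inhibitor and the hairpin line cannot be told apart. Whether the 2 arrays of each group are separate cultures is not given in the labels. The p-values therefore measure the spread between these arrays, which may be technical.

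ERK is the last kinase of a cascade that runs from growth factor receptors through RAS and RAF, and when it is active it raises transcription of its own inhibitors. DUSP6 removes the activating phosphates from ERK in the cytoplasm, and DUSP4 and DUSP5 do so in the nucleus. Sprouty and Spred proteins act higher up, near RAS and RAF, while ETV4 and ETV5 are ETS transcription factors and PHLDA1 is a pleckstrin homology-like domain protein whose transcript follows ERK activity. In melanoma the cascade is often locked on by mutation, and the level of these transcripts is widely used as a readout of it. HSP90 is a chaperone that many kinases need for stability, and HSF1 is the transcription factor that induces heat shock genes when HSP90 is blocked.

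Each value is a MAS5 signal, a linear brightness that had been scaled so that every array had a trimmed mean of 150. Signals of different probe sets cannot be ranked against each other. Changes are differences between group means of log2(signal + 16) with the standard error (SE) from limma, and a change was called at an adjusted p under 0.05 over 12672 genes tested. The 16 added before the log makes changes of dim genes look smaller than they are. All 10 genes passed the filter on low signals, through the probe set with the highest mean, and 27 of their 28 probe sets did. The remaining SPRED2 probe set (214026_s_at) lay between 6.9 and 13.8. A SPRED2 probe set that was tested (212466_at) was also dim, at 1.1 to 11, and reached the array median on only 2 of 8 arrays. The comparisons share arrays, so they are not independent of each other.

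Pairs of arrays correlated at 0.98 to 0.995 and their median signals ran between 10.6 and 14.2. HSF1, the target of the hairpin, read 5.5 and 7.3 in shHSF1 Dox HSP990 cells, against 99 and 42.5 in shHSF1 HSP990 cells, and HSPA6, an inducible HSP70, read 18.3 and 12.4 against 1681 and 1329. In the shNTC groups HSF1 lay between 36.6 and 47.9 and HSPA6 between 5.1 and 15.5. The ratio of 3-prime to 5-prime ACTB signal, a sign of RNA length, was 46.8 on the second shNTC Dox DMSO array and between 4.73 and 18.9 on the other arrays. Of 9 melanocyte markers measured, MITF, SOX10, S100A1 and S100B were at or above the array median on all 8 arrays, and the pigment genes MLANA, PMEL, TYR and TYRP1 and the gene GPM6B were below it on all 8. Of 7 fibroblast markers, COL1A1 and LUM were at or above the median on every array and 3 were below it on every array. LUM read 756.3 and 708.2 in shHSF1 Dox HSP990 cells, and between 373.5 and 460.3 in the other groups. COL1A1 read 85.9 and 84.5 in shHSF1 Dox HSP990 cells and 117 and 113.7 in shHSF1 HSP990 cells. In shNTC cells with DMSO it read 55.8 and 78.9 with Doxycycline and 101.3 and 98 without. DCN (9.5 to 35.8) and PDGFRA (7.6 to 26.9) were each at or above the median on 7 of 8 arrays. The summed signal of the 7, at 825.5 and 897.5 in shHSF1 Dox HSP990 cells and between 491.5 and 632.4 in the other groups, was mostly that of LUM. Of 7 epithelial markers KRT8 and KRT18 were at or above the median on every array, and of 6 hepatocyte markers 0 were.

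DUSP5 was the member that stood apart, and it was higher when HSF1 was depleted under the inhibitor. Its only probe set (209457_at) read 1199 and 1257 in shHSF1 Dox HSP990 cells, 709.4 and 690.6 in shHSF1 HSP990 cells, 660.5 and 588.6 in shNTC Dox DMSO cells, and 735.6 and 666 in shNTC DMSO cells. Both shHSF1 Dox HSP990 arrays were above all 6 others, and the other groups lay close together. The means were 1228 ± 40.9 in shHSF1 Dox HSP990 cells against 700.0 ± 13.3 in shHSF1 HSP990 cells (SD, n = 2 each). That is a log2 change of 0.80 (SE 0.14, limma adjusted p = 0.016), or 1.74-fold. Against shNTC Dox DMSO cells the log2 change was 0.96 (SE 0.14, adjusted p = 0.00434), or 1.94-fold. With the inhibitor but no Doxycycline, against shNTC DMSO cells, the 95% interval of the DUSP5 log2 change ran from -0.32 to 0.32. Doxycycline alone in shNTC cells gave -0.16 (adjusted p = 1.00).

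The knockdown call of DUSP5 was lost when any 1 of the 4 shHSF1 arrays was left out, with log2 changes of 0.76 to 0.83 and adjusted p up to 0.114. The call against shNTC Dox DMSO cells held without each of the 8 arrays in turn in the gene fit (0.88 to 1.04, adjusted p = 0.00469 to 0.0361). In the fit of all probe sets singly it was lost without the second shHSF1 Dox HSP990 array (0.93, adjusted p = 0.071). The Doxycycline effect in shHSF1 cells minus that in shNTC cells was 0.96 (SE 0.20) and did not pass the test (adjusted p = 0.0667). Of the fibroblast markers given above LUM was also higher in shHSF1 Dox HSP990 cells. COL1A1 was lower there than in shHSF1 HSP990 cells and higher than in shNTC Dox DMSO cells. COL1A2, COL3A1 and THY1 read at most 11.7 on any array, PDGFRA at most 26.9 and DCN at most 35.8. In bulk RNA, fewer cells with a transcript and less of it per cell cannot be told apart. The DUSP5 gene lies on chromosome 10 at 110497907 to 110511533 (GRCh38.p14).

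**Figure D1:**
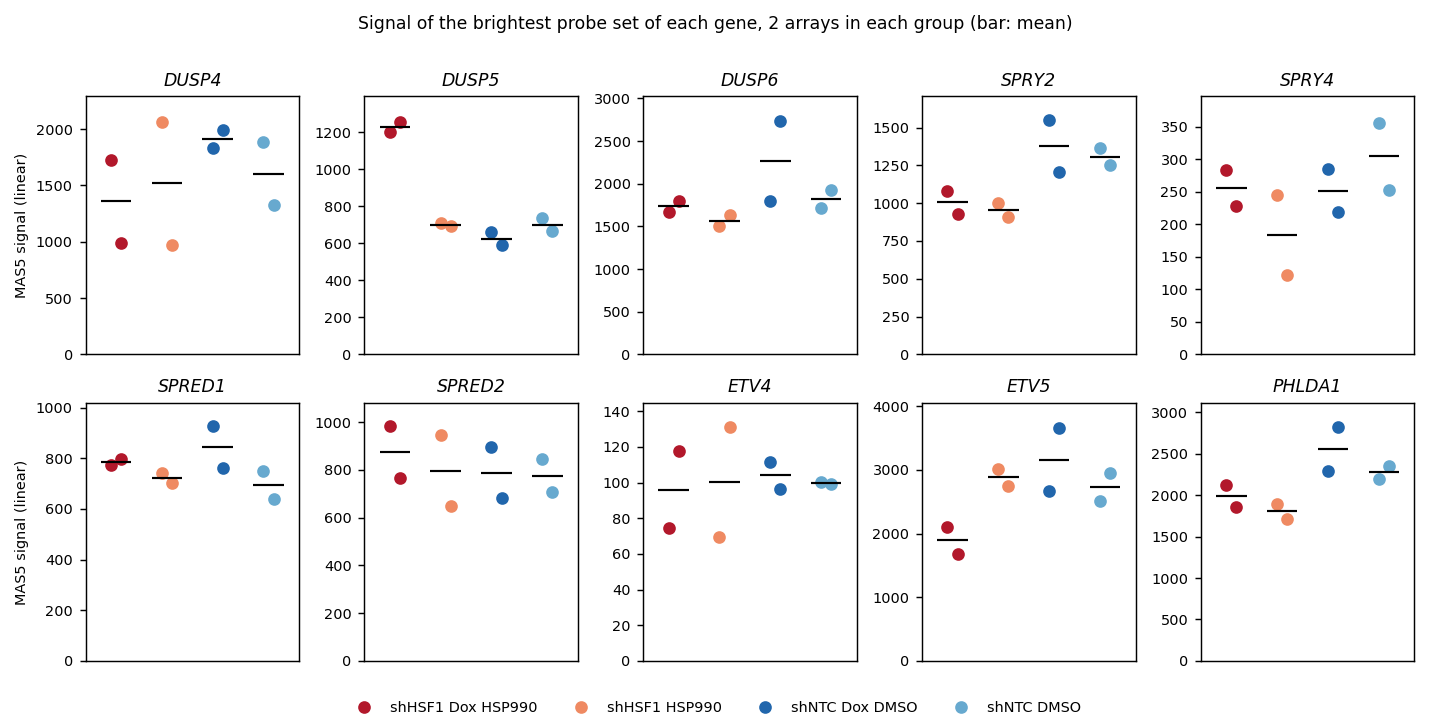
MAS5 signal (linear) of the probe set with the highest mean for each of the 10 genes, with 1 point per array and a bar at the mean of the 2 arrays of a group; scales differ between panels. DUSP5 lies at 1199 and 1257 in shHSF1 Dox HSP990 cells and at or below 735.6 on the other 6 arrays and ETV5 (1679 and 2105) is at its lowest in the same cells.

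Neither of the other ERK phosphatases among the members was called. DUSP6, the cytoplasmic one, read 1672 and 1803 in shHSF1 Dox HSP990 cells, 1509 and 1629 in shHSF1 HSP990 cells, 1797 and 2739 in shNTC Dox DMSO cells, and 1718 and 1923 in shNTC DMSO cells. The highest value was on the second shNTC Dox DMSO array, the one with the ACTB ratio of 46.8, and the other 7 arrays lay between 1509 and 1923. The log2 changes were 0.15 (SE 0.20) with the knockdown, -0.21 with the inhibitor and -0.35 for shHSF1 Dox HSP990 against shNTC Dox DMSO cells (95% interval -0.79 to 0.09), and none passed the test. The last of these came to -0.65 (adjusted p = 0.045) without the first shNTC Dox DMSO array and to -0.05 (adjusted p = 0.904) without the second, so DUSP6 in that comparison rested on which control array was kept. The 3 DUSP6 probe sets gave -0.35, -0.41 and -0.73 there and -0.21, -0.43 and -0.71 with the inhibitor, where both shHSF1 HSP990 arrays lay below both shNTC DMSO arrays in all 3.

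DUSP4, a nuclear phosphatase, differed widely between the 2 arrays of both shHSF1 groups. It read 1723 and 993.4 in shHSF1 Dox HSP990 cells, 2067 and 975 in shHSF1 HSP990 cells, 1836 and 1993 in shNTC Dox DMSO cells, and 1882 and 1330 in shNTC DMSO cells. The first array of each shHSF1 group was the higher one. Its log2 change of -0.54 against shNTC Dox DMSO cells had an SE of 0.34 (adjusted p = 0.431) and ran from -0.93 to -0.15 with arrays left out. A further probe set (226034_at) had closer replicates, at 1088 and 1057 in shHSF1 Dox HSP990 cells against 1462 and 1439 in shNTC Dox DMSO cells, and its change of -0.43 (SE 0.18) did not pass the test either (adjusted p = 0.232).

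Neither Sprouty gene was called in any comparison. SPRY2 read 1083 and 928.8 in shHSF1 Dox HSP990 cells and 1001 and 910.7 in shHSF1 HSP990 cells. It read 1548 and 1205 in shNTC Dox DMSO cells and 1363 and 1254 in shNTC DMSO cells. All 4 arrays of shHSF1 cells with the inhibitor were below all 4 arrays of shNTC cells with DMSO, a difference that is also one between the hairpin lines. The log2 changes were -0.45 (SE 0.17) with the inhibitor and -0.44 for shHSF1 Dox HSP990 against shNTC Dox DMSO cells, with unadjusted p of 0.0232 and 0.025 and adjusted p of 0.85 and 0.176. The knockdown value of SPRY2 was 0.07 (95% interval -0.30 to 0.44).

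SPRY4 read 284.3 and 227.8 in shHSF1 Dox HSP990 cells, 245.9 and 122.2 in shHSF1 HSP990 cells, 284.8 and 219.3 in shNTC Dox DMSO cells, and 356 and 253.7 in shNTC DMSO cells. Only the second shHSF1 HSP990 array lay apart, below the rest. The log2 change with the inhibitor was -0.74 (SE 0.29, adjusted p = 0.904), that with the knockdown 0.51 (adjusted p = 0.467), and that against shNTC Dox DMSO cells 0.02. Leaving out 1 array moved the inhibitor value between -1.20 and -0.27 and the knockdown value between 0.05 and 0.97.

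The Spred genes, which hold back RAS signalling at the membrane, were not called either. SPRED1 read 775.4 and 798.2 in shHSF1 Dox HSP990 cells, 743.3 and 703.3 in shHSF1 HSP990 cells, 928.9 and 760 in shNTC Dox DMSO cells, and 748.4 and 638.5 in shNTC DMSO cells. Its log2 changes ran from -0.09 to 0.28 over the knockdown, inhibitor, Doxycycline and shNTC Dox DMSO comparisons, each with an SE of 0.16. Its probe sets disagreed: 235074_at read 144.6 and 108.9 in shHSF1 Dox HSP990 cells against 153 and 221.9 in shHSF1 HSP990 cells, a change of -0.50 (SE 0.21, adjusted p = 0.328), where 226837_at gave 0.12. SPRED2 ranged over 647 to 983.3 on the 8 arrays, and in all 4 groups the first array was the higher one. Its changes lay between 0.02 and 0.15 in the same 4 comparisons (SE 0.22), and every pair of groups overlapped.

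ETV5 was the only one of the 10 members whose probe set with the highest mean was lower with the knockdown without overlap of arrays. The same was seen for 21.8% of all genes. Its probe set with the highest mean (230102_at) read 2105 and 1679 in shHSF1 Dox HSP990 cells, 3016 and 2752 in shHSF1 HSP990 cells, 2672 and 3653 in shNTC Dox DMSO cells, and 2515 and 2948 in shNTC DMSO cells. The 2 lowest arrays of the 8 were those of shHSF1 Dox HSP990 cells, and the other 3 groups overlapped. The log2 changes were -0.61 with the knockdown (SE 0.20, adjusted p = 0.158) and -0.73 against shNTC Dox DMSO cells (SE 0.20, adjusted p = 0.0643), neither of which passed. With the inhibitor the change was 0.08 (95% interval -0.36 to 0.53). The other ETV5 probe sets differed there, at -0.07, -0.65, -0.38 and 0.30, and none was called. The gene lies on chromosome 3 at 186046314 to 186109089 (GRCh38.p14).

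A second ETV5 probe set (203349_s_at) was called against shNTC Dox DMSO cells. It read 827.2 and 693.2 in shHSF1 Dox HSP990 cells, 1349 and 1213 in shHSF1 HSP990 cells, 1427 and 1751 in shNTC Dox DMSO cells, and 1240 and 1446 in shNTC DMSO cells. It fell by 1.05 on the log2 scale against shNTC Dox DMSO cells (SE 0.17, adjusted p = 0.0104 over 24631 probe sets), and its knockdown change of -0.74 did not pass (adjusted p = 0.0637). A further one (203348_s_at) read 118.8 and 91.6 in shHSF1 Dox HSP990 cells, 298.6 and 145 in shHSF1 HSP990 cells, 421.2 and 264.1 in shNTC Dox DMSO cells, and 421.8 and 268.5 in shNTC DMSO cells. It fell by 1.54 against shNTC Dox DMSO cells (SE 0.34, adjusted p = 0.0363). All 5 ETV5 probe sets were lower with the knockdown, at -0.43 to -0.90, with no overlap of arrays. They read 1 gene and are not independent, and 21.8% of all genes, by 1 probe set each, were lower without overlap. Against shNTC Dox DMSO cells 4 of the 5 ETV5 probe sets lay between -0.60 and -1.54 and the dimmest (231083_at, 18.9 to 46.9) was at -0.06.

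The call of 203349_s_at was lost without the second shHSF1 Dox HSP990 array (adjusted p up to 0.102, with changes of -0.90 to -1.19 over the 8 leave-outs). That of 203348_s_at was lost without any 1 of the 4 arrays compared (-1.22 to -1.86, adjusted p up to 0.198). For the gene as a whole, ETV5 was called in neither comparison in the main fit. It was called in both when its probe sets were averaged (-0.66, limma adjusted p = 0.0456 with the knockdown, and -0.79, adjusted p = 0.0166 against shNTC Dox DMSO cells). The same held after quantile normalization (-0.62 in both, adjusted p = 0.0234 and 0.0155). With arrays left out, the gene's changes ran from -0.45 to -0.77 with the knockdown and from -0.5 to -0.95 against shNTC Dox DMSO cells.

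ETV4, the close relative of ETV5, was not called. It read 74.3 and 117.9 in shHSF1 Dox HSP990 cells, 69.5 and 130.9 in shHSF1 HSP990 cells, 111.5 and 96.5 in shNTC Dox DMSO cells, and 100.3 and 99.1 in shNTC DMSO cells. All groups overlapped, and the changes were -0.03, -0.05 and -0.12 with the knockdown, with the inhibitor and against shNTC Dox DMSO cells (SE 0.28), so changes of the size seen for ETV5 lie within its intervals (-0.65 to 0.60 with the knockdown). Its dimmer probe set (1554576_a_at) read 13.1 and 49.2 in shHSF1 Dox HSP990 cells, 5.5 and 18.3 in shHSF1 HSP990 cells, 46.9 and 30.1 in shNTC Dox DMSO cells, and 33.9 and 22.5 in shNTC DMSO cells. It gave 0.68 with the knockdown and -0.69 with the inhibitor (SE 0.37, adjusted p = 0.458 and 1.00), the inhibitor value without overlap of arrays.

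PHLDA1 was not called, though in its probe set with the highest mean both shHSF1 groups with NVP-HSP990 lay below the shNTC groups with DMSO. Its probe set with the highest mean (225842_at) read 2121 and 1853 in shHSF1 Dox HSP990 cells, 1897 and 1712 in shHSF1 HSP990 cells, 2298 and 2827 in shNTC Dox DMSO cells, and 2199 and 2350 in shNTC DMSO cells. All 4 values of the shHSF1 groups were below all 4 of the shNTC groups. The changes were -0.33 (SE 0.17, adjusted p = 1.00) with the inhibitor and -0.36 (adjusted p = 0.275) against shNTC Dox DMSO cells, and neither passed the test. With its probe sets averaged, PHLDA1 was called against shNTC Dox DMSO cells (-0.68, adjusted p = 0.0197). Of its 6 probe sets, 217997_at was called against shNTC Dox DMSO cells. It read 1211 and 882.1 in shHSF1 Dox HSP990 cells, 1510 and 1154 in shHSF1 HSP990 cells and 1440 and 1773 in shNTC DMSO cells. The shHSF1 HSP990 and shNTC DMSO arrays of this probe set overlapped. In shNTC Dox DMSO cells it read 1900 and, on the array with the ACTB ratio of 46.8, 2508. It fell by 1.07 on the log2 scale (SE 0.22, adjusted p = 0.028), a call lost without the second array of either group (-0.84 to -1.29 over the leave-outs, adjusted p up to 0.206). The 6 probe sets lay between -0.36 and -1.07 in that comparison and between -0.27 and -1.13 with the inhibitor.

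**Figure D2:**
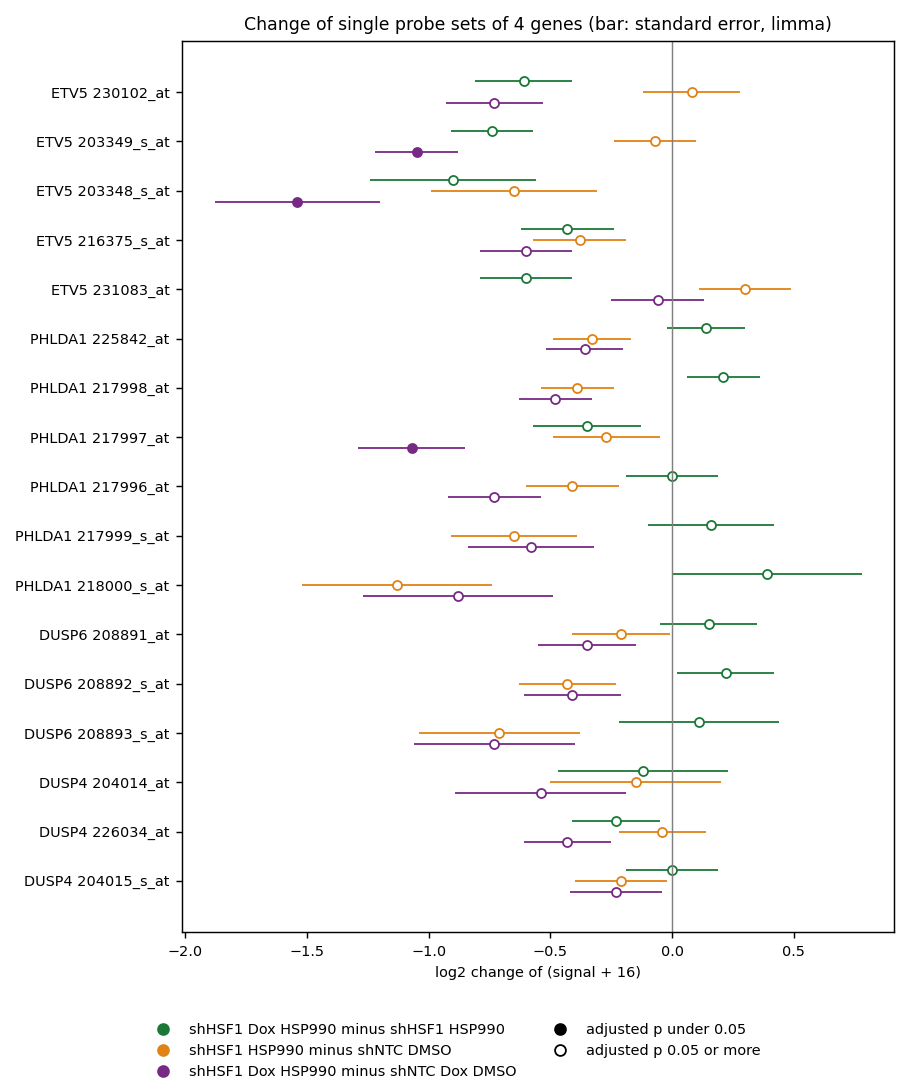
Log2 change of (signal + 16) for each probe set of ETV5, PHLDA1, DUSP6 and DUSP4 in 3 comparisons, with bars of 1 standard error from limma and filled points for an adjusted p under 0.05. The 3 filled points are ETV5 203349_s_at (-1.05), ETV5 203348_s_at (-1.54) and PHLDA1 217997_at (-1.07), all for shHSF1 Dox HSP990 minus shNTC Dox DMSO; the PHLDA1 and DUSP6 points for the inhibitor all lie below 0.

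Over the 10 genes, the knockdown under the inhibitor called 1, DUSP5, higher, beside 2.84% of all genes tested (0.994% higher and 1.85% lower). Of the values, 7 of 10 were above 0, with a median log2 change of 0.13, against 0.0 for all genes. Arrays did not overlap for 3 members on the higher side (21.5% of all genes) and for 1, ETV5, on the lower side (21.8% of all genes). Among the 27 probe sets 1 was called, DUSP5, beside 1.88% of all probe sets. Without overlap 6 of the 27 were higher and 6 lower, those of ETV5 among the lower. The share of all probe sets without overlap is not given for this comparison, and by gene it was 21.5% higher and 21.8% lower. These counts therefore do not show that the member probe sets differ from all probe sets. The median was 0.07, against 0.01 over all probe sets.

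With the inhibitor, shHSF1 HSP990 against shNTC DMSO cells, 0 of 10 genes were called by limma, beside 0.221% of all genes (28 of 12672, 0.197% higher and 0.0237% lower), and 0 of 27 probe sets were, beside 0.134% of all probe sets. SPRY2 and SPRY4 had an unadjusted p under 0.05, as did 628 of all genes. The median member was at -0.10, against 0.01 for all genes, and 3 of 10 values were above 0. Arrays did not overlap for 4 members, all lower: DUSP6, SPRY2, SPRY4 and PHLDA1 (15.6% of all genes were lower and 17.6% higher without overlap). By probe set, 13 of 27 were lower without overlap (16.9% of all probe sets) and 1 was higher (16.8%), and the median was -0.27, against 0.0 over all probe sets. Probe sets of 1 gene read the same transcript and are not independent, and 6 of the 27 belong to PHLDA1 and 5 to ETV5.

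For shHSF1 Dox HSP990 against shNTC Dox DMSO cells, which differ in HSF1, in the inhibitor and in the hairpin line, 1 of 10 genes was called, beside 5.83% of all genes (2.84% higher and 2.99% lower). The median member was at -0.24, against 0.01 for all genes, with 3 of 10 values above 0. Arrays did not overlap for 4 lower genes, DUSP4, SPRY2, ETV5 and PHLDA1 (20.9% of all genes), and for 1 higher gene, DUSP5 (23.7%). By probe set, 4 of 27 were called, 1 higher and 3 lower, beside 3.98% of all probe sets (1.85% higher and 2.14% lower). Without overlap 15 of 27 were lower (20.3% of all probe sets) and 1 was higher (23.2%), and the median was -0.43, against 0.02 over all probe sets.

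Doxycycline in shNTC cells called 0 members, beside 0.0% of all genes, with no member and 306 of all genes at an unadjusted p under 0.05. The median member was at 0.11, against -0.01 for all genes, and the arrays of SPRED1 were higher and those of DUSP5 lower without overlap (11.8% and 16.7% of all genes). In the test of the Doxycycline effect in shHSF1 cells with the inhibitor minus that in shNTC cells with DMSO, 0 members were called by limma, beside 0.789% of all genes (0.308% higher and 0.481% lower), while DUSP5 and ETV5 had an unadjusted p under 0.05, as did 1337 of all genes.

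**Figure D3:**
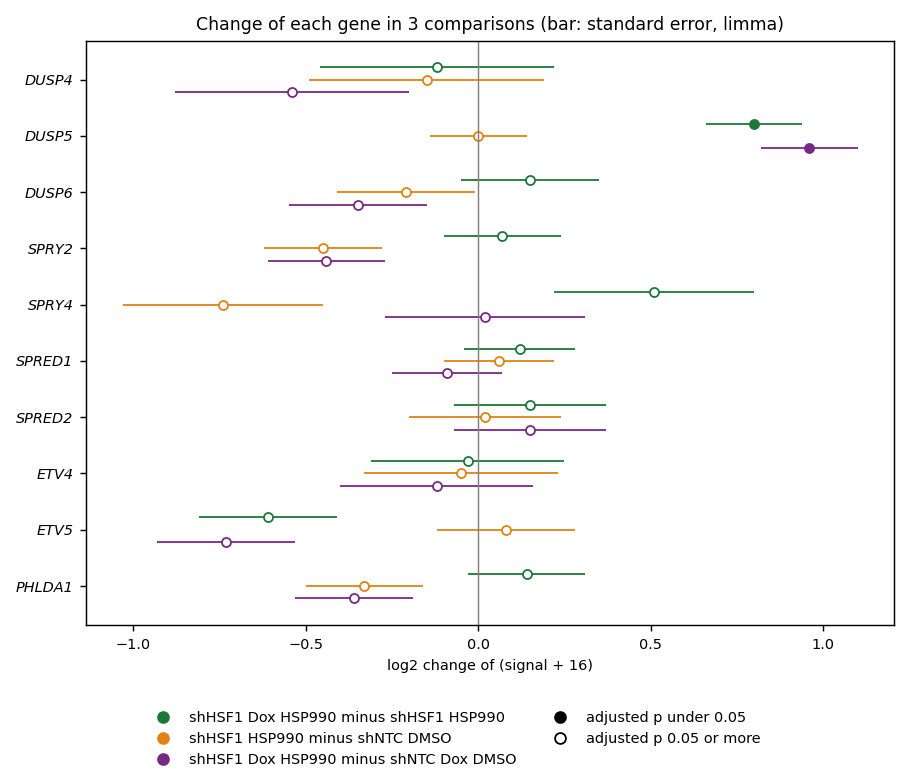
Log2 change of (signal + 16) of the 10 genes in 3 comparisons, with bars of 1 standard error from limma and filled points for an adjusted p under 0.05. The filled points are both DUSP5 (0.80 with the knockdown and 0.96 against shNTC Dox DMSO cells), and ETV5 lies at -0.61 and -0.73 in those comparisons and at 0.08 with the inhibitor.

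Of the cascade itself, 19 of 25 listed genes were measured and tested. SOS1, an exchange factor that loads RAS, was the only one called in any comparison. It was called against shNTC Dox DMSO cells, beside 5.83% of all genes (2.84% higher and 2.99% lower). SOS1 read 339 and 301 in shHSF1 Dox HSP990 cells. In shNTC Dox DMSO cells it read 539.2 and, on the array with the ACTB ratio of 46.8, 662.5. That is a fall of 0.87 on the log2 scale (SE 0.18, limma adjusted p = 0.0182). That call was lost without the second array of either group (adjusted p up to 0.114), and the mean over its probe sets was at -0.22. The kinase above ERK, MAP2K1, read 1408 and 1456 in shHSF1 Dox HSP990 cells and 2066 and 1747 in shHSF1 HSP990 cells, with 1858 and 2043 in shNTC Dox DMSO cells. Its changes of -0.40 and -0.44 did not pass (SE 0.15, adjusted p = 0.225 and 0.137). MAPK3, which is ERK1, lay at -0.33 and -0.48 in the same comparisons (SE 0.27, adjusted p = 0.639 and 0.366). It read 65 and 57.7 in shHSF1 Dox HSP990 cells against 129.3 and 63.5 in shNTC Dox DMSO cells, and -0.48 ran from -0.91 to -0.04 with arrays left out.

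Of 12 further feedback genes, phosphatases and Sprouty or Spred relatives of the members, 11 were tested. Against shNTC Dox DMSO cells 1 was called higher and 1 lower, beside 2.84% and 2.99% of all genes. None was called in the other comparisons. DUSP1, a phosphatase of stress kinases and ERK, read 180.2 and 134.5 in shHSF1 Dox HSP990 cells and 171.2 and 145.8 in shHSF1 HSP990 cells. It read 67 and 78.1 in shNTC Dox DMSO cells and 71.7 and 95.3 in shNTC DMSO cells. All 4 arrays of shHSF1 cells with the inhibitor were above all 4 of shNTC cells with DMSO. The change against shNTC Dox DMSO cells was 0.96 (SE 0.22, adjusted p = 0.032), that with the inhibitor 0.82 (adjusted p = 0.416), and that with the knockdown -0.02 (adjusted p = 0.986). The DUSP1 call was lost without any 1 array of shHSF1 Dox HSP990, shNTC Dox DMSO or shNTC DMSO cells (0.77 to 1.15, adjusted p up to 0.159), and the mean of its probe sets gave 0.36.

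SPRY1, a Sprouty protein like SPRY2, read 206.5 and 147.8 in shHSF1 Dox HSP990 cells and 191.6 and 124.9 in shHSF1 HSP990 cells, against 612 and 359.7 in shNTC Dox DMSO cells and 351.7 and 306.2 in shNTC DMSO cells. It fell by 1.35 against shNTC Dox DMSO cells (SE 0.28, adjusted p = 0.0197), a call lost without the first shNTC Dox DMSO or the second shHSF1 Dox HSP990 array (-0.98 to -1.72, adjusted p up to 0.119), and its probe sets averaged -0.67. With the inhibitor it was at -1.01 (adjusted p = 0.444, or 0.0496 with the replicate number as a block). DUSP7, a cytoplasmic ERK phosphatase like DUSP6, was at 0.63 with the knockdown (SE 0.21, adjusted p = 0.16).

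Of 31 further genes listed as ERK targets 29 were tested, and calls went in both directions. The list also holds transcription factors that ERK phosphorylates, such as ETS2. Its counts and median therefore do not describe ERK-induced transcripts alone. With the knockdown 3 were higher, EGR1, HBEGF and MYC, and 3 were lower, PHLDA2, ELK3 and FOS, beside 0.994% and 1.85% of all genes. FOS entered the test only through the group where it is high. The median of the 29 was at 0.30, against 0.0 for all genes. EGR1, an immediate early transcription factor, read 2314 and 2161 in shHSF1 Dox HSP990 cells, 1265 and 1171 in shHSF1 HSP990 cells, 986.3 and 1063 in shNTC Dox DMSO cells, and 1315 and 1416 in shNTC DMSO cells. Like DUSP5 it was above all other groups only in shHSF1 Dox HSP990 cells. Its log2 change was 0.87 with the knockdown (SE 0.14, adjusted p = 0.0117), 1.11 against shNTC Dox DMSO cells (adjusted p = 0.00198) and -0.16 with the inhibitor (adjusted p = 1.00). The Doxycycline effect differed between the shHSF1 cells with the inhibitor and the shNTC cells with DMSO by 1.28 (SE 0.20, adjusted p = 0.0199), a call lost without any array other than the second of shNTC Dox DMSO cells (1.22 to 1.33, adjusted p up to 0.157). The knockdown call was lost without any 1 of the 4 shHSF1 arrays (adjusted p up to 0.0791), and the mean of its probe sets gave 0.70 (adjusted p = 0.0765).

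HBEGF, a ligand of the EGF receptor, read 709.6 and 566.2 in shHSF1 Dox HSP990 cells, 298 and 295.3 in shHSF1 HSP990 cells, 176.7 and 140 in shNTC Dox DMSO cells, and 288.3 on both arrays of shNTC DMSO cells. The shHSF1 Dox HSP990 arrays were the highest and the shNTC Dox DMSO arrays the lowest. The log2 change was 1.06 with the knockdown (SE 0.18, adjusted p = 0.0126) and 1.91 against shNTC Dox DMSO cells (adjusted p = 0.000411), and that with Doxycycline in shNTC cells was -0.81 (adjusted p = 1.00). The knockdown call was lost without the first array of either shHSF1 group (adjusted p up to 0.0808). With its probe sets averaged, HBEGF was at 0.56 with the knockdown and 0.94 against shNTC Dox DMSO cells, and was called in both.

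MYC, a growth factor-responsive transcription factor, read 145.1 and 156.2 in shHSF1 Dox HSP990 cells, 82.2 and 72.6 in shHSF1 HSP990 cells, 49.6 and 42.7 in shNTC Dox DMSO cells, and 48.4 and 41.9 in shNTC DMSO cells. Both groups with the inhibitor were above both groups with DMSO, and the group with HSF1 depleted was the higher. It rose by 1.42 against shNTC Dox DMSO cells (SE 0.19, adjusted p = 0.00248), a call kept without each array in turn. The knockdown change was 0.84 (adjusted p = 0.049). Leaving out any 1 of the 8 arrays ended that call (adjusted p up to 0.232), and the inhibitor change was 0.61 (adjusted p = 0.591).

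PHLDA2, a relative of PHLDA1, had the largest fall with the knockdown among these targets. It read 82.4 and 95 in shHSF1 Dox HSP990 cells, 282 and 427.5 in shHSF1 HSP990 cells, 355.1 and 331.7 in shNTC Dox DMSO cells, and 283.7 and 325.3 in shNTC DMSO cells. The fall was 1.80 on the log2 scale with the knockdown (SE 0.21, adjusted p = 0.00187) and 1.78 against shNTC Dox DMSO cells (adjusted p = 0.00126), and both calls held without each array in turn. ELK3, an ETS factor of the ternary complex family, read 371.4 and 475.1 in shHSF1 Dox HSP990 cells against 674.5 and 1047 in shHSF1 HSP990 cells and 822 and 856 in shNTC Dox DMSO cells. Its change was -0.97 in both comparisons (SE 0.21, adjusted p = 0.0358 and 0.0238). The first call was lost without any array other than the first of shHSF1 HSP990 cells (-0.66 to -1.29, adjusted p up to 0.163), and the second without either shNTC Dox DMSO array or the first shHSF1 Dox HSP990 array (adjusted p up to 0.121). The mean of its probe sets gave -0.51 (adjusted p = 0.0995) with the knockdown and -0.64 against shNTC Dox DMSO cells.

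**Figure D4:**
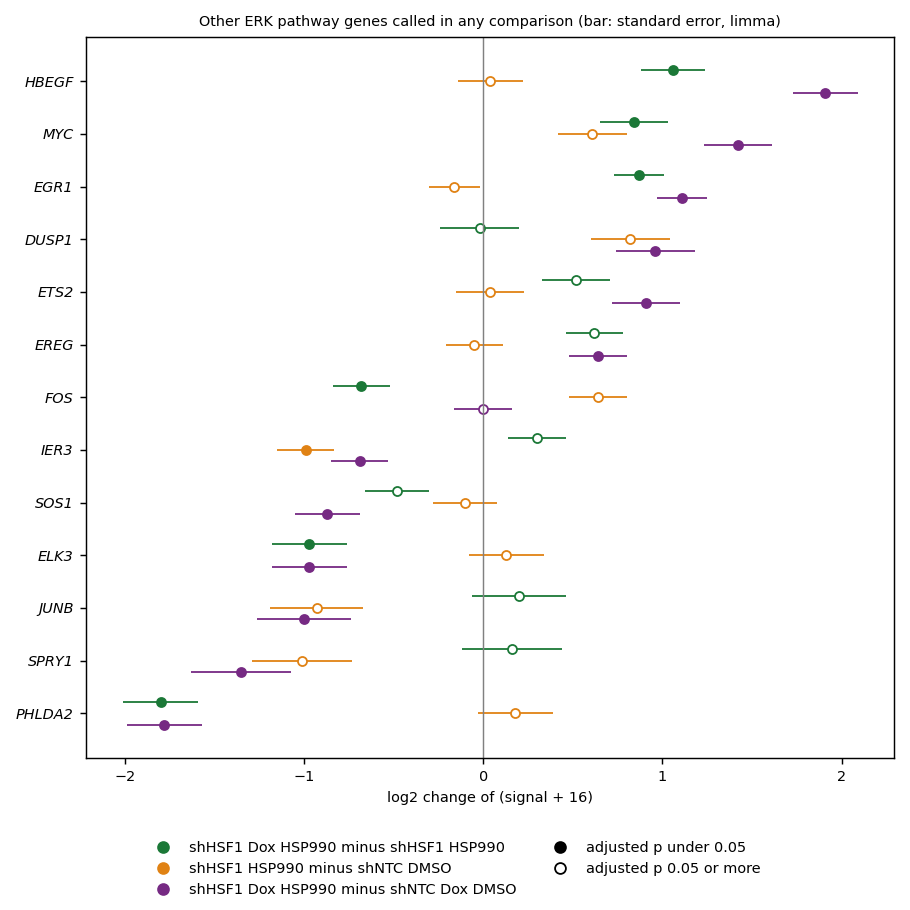
Log2 change of (signal + 16) of the 13 ERK cascade, feedback and target genes outside the 10 that were called in any comparison, with bars of 1 standard error from limma and filled points for an adjusted p under 0.05; FOS and EREG passed the filter only through the group where they are high. HBEGF, MYC and EGR1 lie above 0 and PHLDA2 and ELK3 below 0 for shHSF1 Dox HSP990 minus shHSF1 HSP990, and IER3 is the only filled point for the inhibitor (-0.99).

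IER3, an immediate early gene that prolongs ERK activity, was the 1 target called with the inhibitor. It read 1767 and 1825 in shHSF1 Dox HSP990 cells and 1497 and 1408 in shHSF1 HSP990 cells, against 2594 and 3270 in shNTC Dox DMSO cells and 2847 and 2938 in shNTC DMSO cells. It fell by 0.99 with the inhibitor (SE 0.16, adjusted p = 0.0492) and by 0.69 against shNTC Dox DMSO cells (adjusted p = 0.0356). The first call was lost without any array of shHSF1 or shNTC DMSO cells (adjusted p up to 0.599), and the second without any array other than the first of shNTC Dox DMSO cells (adjusted p up to 0.173). JUNB, an AP-1 subunit, was at 61 and 121.2 in shHSF1 Dox HSP990 cells against 196.7 and 183.9 in shNTC Dox DMSO cells, a change of -1.0 (SE 0.26, adjusted p = 0.0485). The JUNB call was lost without either shNTC Dox DMSO array, either shNTC DMSO array or the first shHSF1 Dox HSP990 array (-0.59 to -1.42, adjusted p up to 0.219).

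ETS2, an ETS factor that ERK phosphorylates, was higher at 250.6 and 319.1 in shHSF1 Dox HSP990 cells against 160.4 and 127.2 in shNTC Dox DMSO cells (0.91, SE 0.19, adjusted p = 0.0217), a call lost without the second array of either group (adjusted p up to 0.158). Its probe sets averaged 0.40. FOS and EREG, which are outside the rule for naming genes, complete these counts. Each was at or above the array median on only 2 of 8 arrays, both of the group where it is high, so each passed the filter only through that group and its call has no weight. FOS read 8.1 and 7.5 in shHSF1 Dox HSP990 cells against 22.5 and 21.9 in shHSF1 HSP990 cells, and the 6 arrays outside shHSF1 HSP990 cells lay between 7.5 and 9.3. EREG, a further ligand of the EGF receptor, read 18.7 and 16.4 in shHSF1 Dox HSP990 cells against 4.7 and 6.5 in shNTC Dox DMSO cells, and the 6 arrays outside shHSF1 Dox HSP990 cells lay between 4.7 and 6.6. Against shNTC Dox DMSO cells 5 of the 29 targets, EREG among them, were thus higher and 4 lower, beside 2.84% and 2.99% of all genes, and in the inhibitor comparison 0 were higher and 1 was lower (0.197% and 0.0237%).

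Other common readouts of ERK activity did not pass the test. CCND1, cyclin D1, read 1744 and 1586 in shHSF1 Dox HSP990 cells, 1578 and 1328 in shHSF1 HSP990 cells, 1720 and 1780 in shNTC Dox DMSO cells, and 1972 and 1648 in shNTC DMSO cells. Its changes were 0.20, -0.31 and -0.07 with the knockdown, with the inhibitor and against shNTC Dox DMSO cells (SE 0.16). FOSL1, an AP-1 subunit that depends on ERK, was at 0.02, -0.17 and -0.04 (SE 0.22), and none of these passed the test.

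RefSeq promoter windows of 300 bases, 250 before and 50 after the start site, were at hand for 6 of the 10 members (9 windows). They were searched on both strands for heat shock element cores (GAANNTTC, in 6.77% of all 35116 windows, and TTCNNGAA, in 7.74%), an ETS site (CCGGAAGT, 4.14%), a cyclic AMP response element (TGACGTCA, 1.85%), an AP-1 site (TGANTCA, 7.71%) and a CArG box, the site of serum response factor (1.29%). DUSP5 and ETV5 had no window and were not searched. Among the members with a window, only the SPRED2 window at chr2:65366729-65367028 held any of these sites, 2 AP-1 sites. The SPRY1 window at chr4:123398136-123398435, of a called gene outside the members, held 1 heat shock element core (TTCNNGAA) from -214 to -207 relative to the start site. Outside the members, matches were listed only for EGR1, HBEGF, ELK3, ETS2, SPRY1, DUSP1 and SOS1. Other called genes, such as MYC, JUNB and FOS, were not looked at. Among the listed genes, only EGR1 and DUSP1 held a match to the serum response or cyclic AMP element, and they are shown for that. EGR1 was higher with the knockdown, while DUSP1 arrays were higher in both groups with the inhibitor. Capitals mark 2 CArG boxes in EGR1 (chr5:138465229-138465528, plus strand) and 1 cyclic AMP response element in DUSP1 (chr5:172771146-172771445, minus strand), 5′ to 3′ in GRCh38.p14. A match is a description of these letters and not evidence of binding.
EGR1: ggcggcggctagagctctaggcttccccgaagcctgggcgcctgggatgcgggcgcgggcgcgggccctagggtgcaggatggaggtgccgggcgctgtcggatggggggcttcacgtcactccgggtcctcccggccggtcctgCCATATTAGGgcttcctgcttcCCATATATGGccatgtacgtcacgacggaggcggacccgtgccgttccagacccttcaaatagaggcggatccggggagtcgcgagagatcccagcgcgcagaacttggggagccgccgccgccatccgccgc
DUSP1: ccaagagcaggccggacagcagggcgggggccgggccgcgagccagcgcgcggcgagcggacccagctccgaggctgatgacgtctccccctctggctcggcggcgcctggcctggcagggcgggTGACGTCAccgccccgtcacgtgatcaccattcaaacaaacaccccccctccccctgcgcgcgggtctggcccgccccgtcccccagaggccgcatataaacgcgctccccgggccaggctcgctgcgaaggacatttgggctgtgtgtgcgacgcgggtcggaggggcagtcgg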

How the data were processed

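Per the labels, total RNA of A375 cells was amplified, labelled with biotin and hybridised. The submitters' processing notes name MAS5, with no version given. The deposited values are signal intensities on a linear scale, which the authors computed with MAS5, and each array's trimmed mean (2% removed at each end) was 150. They were used without further normalization. Groups and replicate numbers came from the sample titles. The samples' descriptions mention other cells and drugs and were left aside.

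Of 54675 probe sets, 41091 had 1 gene symbol, 1801 several and 11721 none, and 62 were controls. Only those with 1 symbol were used, and the one with the highest mean log2 signal stood for a gene. Genes at or above their array's median in at least 2 of 8 arrays were tested, 12672 in all. limma 3.58.1 in R 4.3.3 estimated the 4 group means from all 8 arrays together on log2(signal + 16), with a variance trend (4 residual and 6.36 prior degrees of freedom). Tests were two-sided with Benjamini-Hochberg adjustment over all genes tested. Single probe sets were fitted the same way, 24631 in all. The number of arrays limits the precision. The script was tested on simulated data with known changes, and tables and plots were made with Python 3.11.15.

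The members, the gene lists and the tests were chosen with earlier results of these data known. The text names all members, HSF1 and HSPA6, up to 8 called genes of each list by size of change, MAP2K1, MAPK3, CCND1, SPRY1, DUSP1, DUSP7, FOSL1 and MYC, and the 3 tested genes most like the mean of the members and like DUSP6. Some listed genes are not reported here. Promoter windows came from RefSeq (GRCh38.p14). The alternatives were no filter on dim genes, a stricter filter, 1 or 64 in place of the 16, quantile normalization, median centring, the mean of a gene's probe sets, probe sets tested singly, a replicate block, no variance trend, a fit of each comparison's own arrays, the methods' t-test, and each array left out in turn. Fits of single probe sets with arrays left out, with the block and after quantile normalization were added after seeing the data.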

Additional observations from a re-analysis of the deposited data

Results flagged for a closer look

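Of 29 tested ERK targets outside the members, 2 were called higher and 1 lower in limma's test of the difference between Doxycycline effects. The effect in inhibitor-treated shHSF1 cells was set against that in DMSO-treated shNTC cells. Of all genes 0.308% were called higher and 0.481% lower. PHLDA2 differed by -1.97 on the log2 scale (SE 0.30, adjusted p = 0.0174), since its signals were 82.4 and 95 in shHSF1 Dox HSP990 cells against 282 and 427.5 in shHSF1 HSP990 cells, and 355.1 and 331.7 in shNTC Dox DMSO cells against 283.7 and 325.3 in shNTC DMSO cells. That call was lost without any 1 of the 4 shNTC arrays (-1.68 to -2.25, adjusted p up to 0.116). HBEGF differed by 1.87 (SE 0.25, adjusted p = 0.0116), which was made up of a knockdown change of 1.06 and a Doxycycline change of -0.81 in shNTC cells. It was lost without the second shNTC Dox DMSO array or either shNTC DMSO array (1.71 to 2.03, adjusted p up to 0.0792), and the mean of its probe sets gave 0.95 (adjusted p = 0.0482). EGR1 differed by 1.28 (SE 0.20, adjusted p = 0.0199), made up of 0.87 and -0.41, and was lost without any array other than the second of shNTC Dox DMSO cells. DUSP5, at 0.96, was the member nearest to a call in this test (adjusted p = 0.0667).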

How the results depend on the processing

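The inhibitor and Doxycycline comparisons called 0 members under all alternatives with adjusted p-values, and the methods' t-test without adjustment called 1 with the inhibitor. With the knockdown, 1 member was called in the gene fit, 2 after quantile normalization, 2 when probe sets were averaged, and 0 with only the comparison's arrays and with the methods' t-test after adjustment. Leaving out each array gave 0 to 1. Against shNTC Dox DMSO cells 1 was called, 2 after quantile normalization, 3 with the mean of all probe sets (DUSP5, ETV5 and PHLDA1), 3 with all probe sets tested singly and 0 with the methods' t-test. Leaving out each array gave 1 to 3, where 3 came without the first shNTC Dox DMSO array. Of the member probe sets tested singly, 1 was called with the knockdown (3 after quantile normalization, and 0 to 2 with arrays left out) and 4 against shNTC Dox DMSO cells (0 to 7 with arrays left out, 0 without the second shHSF1 Dox HSP990 array). A lone array left in a group was assumed to vary like the others. Shares of all genes called were given only for the gene fit, and shares of all probe sets only for probe sets tested singly. The counts under the other alternatives therefore do not show whether the members differ from all genes.

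The replicate numbers are shared across groups. Deviations of same-numbered arrays correlated at 0.685 between the shHSF1 groups and at 0.464 between the shNTC groups. Between groups of different hairpin lines they correlated at 0.016 to 0.276. The titles name no shared culture, so the numbers were not taken as pairs in the main fit, though arrays of 1 line may be paired. With the replicate block, 2 members were called against shNTC Dox DMSO cells (ETV5, adjusted p = 0.0478), 1 in the test of the difference of Doxycycline effects (DUSP5, adjusted p = 0.0305) and 3 member probe sets with the knockdown. Among the other genes it added SPRY1 with the inhibitor (adjusted p = 0.0496), EREG with the knockdown (0.0479) and ELK3 in the test of the difference (0.042).

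The sign of a member's change differed from that of the main setting in 60 of 980 values under alternatives, 0 of them with a call on either side. The cause of these differences was not tested. With 2 arrays in a group, their number limits the precision.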

Other observations

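The tested genes whose log2 signal over the 8 arrays was most like the mean of the 10 members were INTS6L, FLRT3 and WBP1L (Pearson r of 0.971, 0.967 and 0.963). Those most like DUSP6 were DYRK1A, PSMB4 and DDX17 (0.976, 0.965 and 0.964). Those most like DUSP5, named after the values were seen, were H2BC12, KRTAP4-9 and LYSMD2 (0.994, 0.992 and 0.989). These are descriptions over 8 arrays in 4 groups, which share their treatments and scaling, and carry no test.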
